A study of Anastrepha ludens with 9 samples.

Results

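Assembled genes with very long transcripts were examined in embryos of Anastrepha ludens, the Mexican fruit fly, over 3 early stages. They were chosen by length, as the genes whose longest assembled contig measured 10000 bases or more. No expression value entered that rule, but a contig is itself assembled from reads. Of 198130 assembled genes in the 3 assemblies together, 443 met the rule. They comprised 142 of 45798 genes in the syncytium, 141 of 76713 during cellularization and 160 of 75619 at gastrulation.

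The stages were the syncytium (0 to 9 h), in which nuclei divide in a shared cytoplasm, cellularization (9 to 18 h), in which membranes form around the nuclei, and gastrulation (18 to 30 h), in which cell sheets fold into germ layers. All embryos were kept at 25 °C in water, total RNA was sequenced, and each stage had 3 libraries that the series' design text describes as biological replicates. The labels give no strain, genotype or number of embryos for a library. The libraries held between 28099549 and 51201882 estimated counts. A stage had an assembly of its own with its own names, so a gene of one stage cannot be followed into the next. In every stage difference given here, the stage and its assembly cannot be told apart.

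In flies, very long messenger RNAs encode giant proteins such as titin-like muscle proteins, spectraplakins, which link actin and microtubules, cytoplasmic dynein heavy chains and large extracellular matrix proteins. In Drosophila, the early embryo runs on messenger RNA loaded by the mother, while the first genes it transcribes itself are mostly short and have few introns, because the rapid nuclear cycles leave little time to finish a long transcript. The deposited tables pair no contig with a gene symbol, and 0 of the 443 names occur in the RefSeq gene table of the species. The genes are therefore described by length, level and make-up, with no protein assigned to any of them, and the labelled stages could not be checked against marker genes.

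The length distributions of these genes were alike in the 3 assemblies. The median longest contig measured 11586 bases in the syncytium, 11316 during cellularization and 11621 at gastrulation. Those whose longest contig reached 15000 bases numbered 20, 22 and 18 in the same order of stages, and those that reached 20000 bases 4, 1 and 2. The longest contig of all, 28974 bases, belonged to a syncytium gene. The other two assemblies reached 20340 bases at cellularization and 23596 at gastrulation. As a share of all assembled genes, very long genes made up 0.310%, 0.184% and 0.212%. The rule fixes the threshold but not the level on either side of it, which is given here as a description. Genes just inside it, whose longest contig exceeded the threshold by less than 500 bases, had a median of 28.2 TPM in the syncytium (30 genes), 18.7 TPM at cellularization (28 genes) and 13.2 TPM at gastrulation (34 genes). Genes just outside it, which missed it by at most 500 bases, had medians of 16.4 TPM (31 genes), 16.6 TPM (27 genes) and 16.1 TPM (38 genes).

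Very long genes took up about 2% of the estimated counts and under 0.6% of the TPM in every library. TPM is a relative abundance that is divided by effective contig length, so a long transcript yields more counts than a short one at the same TPM. The share of estimated counts was 2.43%, 2.15% and 2.14% in the syncytium libraries, 2.09%, 2.03% and 2.01% at cellularization, and 1.59%, 2.19% and 2.13% at gastrulation. The third group was split, with replicate 1 below every other library of the series and replicates 2 and 3 above every cellularization library. The share of TPM was 0.524%, 0.467% and 0.461% in the syncytium, 0.422%, 0.397% and 0.434% at cellularization, and 0.296%, 0.390% and 0.387% at gastrulation. By TPM the 3 stages did not overlap, although the highest gastrulation library lay only just under the lowest cellularization library.

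**Figure D1:**
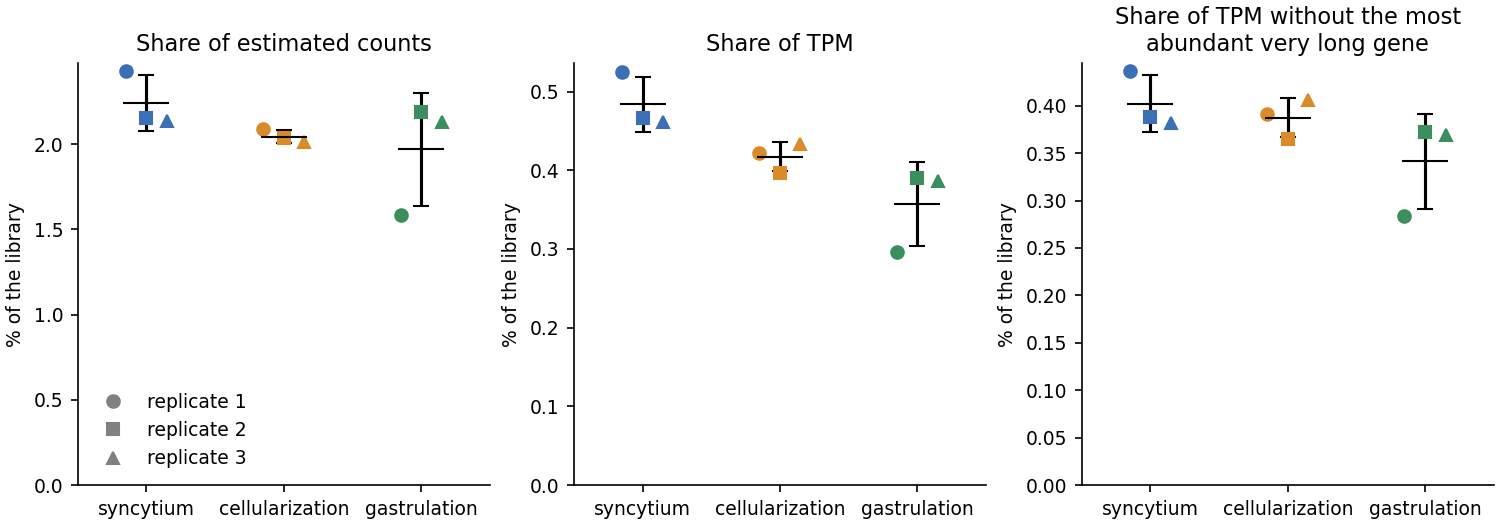
Share of each library held by very long genes, in percent of estimated counts (left), of TPM (middle) and of TPM without the most abundant very long gene of each stage (right). Symbols are single libraries, horizontal bars the mean and whiskers the SD (n = 3). Gastrulation replicate 1 is the lowest library in all 3 panels, and the libraries of cellularization and the syncytium overlap only in the right panel.

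At cellularization very long genes held 2.04% ± 0.0395 of the counts, against 2.24% ± 0.165 in the syncytium (SD, n = 3 each). Their share of TPM was 0.417% ± 0.0189 at cellularization and 0.484% ± 0.0350 in the syncytium, a ratio of 0.862, and the libraries of the stages did not overlap in either measure. Most of the difference in TPM was gone once 1 gene per stage was left out. Without the most abundant very long gene of each stage the shares of TPM were 0.387% at cellularization and 0.402% in the syncytium, and by counts 1.86% during cellularization and 1.99% in the syncytium, with overlapping libraries in both. For contigs summed per component, the shares of counts were 2.66% at cellularization and 2.69% in the syncytium, also with overlap, while those of TPM, 0.609% and 0.681%, did not overlap. The direction also depended on the length threshold. With a minimum of 8000 bases the order turned, to ratios of 1.30 by counts and 2.48 by TPM, and with 12000 bases the ratios were 0.634 and 0.540, without overlap in any of these.

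At gastrulation very long genes held 1.97% ± 0.333 of the counts, against 2.04% ± 0.0395 at cellularization and 2.24% ± 0.165 in the syncytium, and the gastrulation libraries overlapped with those of both stages. Their share of TPM was 0.357% ± 0.0536, lower than at cellularization by a ratio of 0.856 and lower than in the syncytium by a ratio of 0.738, without overlap. Without gastrulation replicate 1 the share of TPM was 0.388% at gastrulation, against 0.417% at cellularization and 0.484% in the syncytium. The ratios were then 0.930 and 0.802, still without overlap. The share of counts without it was 2.16% at gastrulation, above 2.04% at cellularization without overlap, so that the direction turned. Without the most abundant gene of each stage, with all libraries, the shares were 1.88% of counts and 0.342% of TPM at gastrulation, against 1.86% and 0.387% at cellularization, and the libraries overlapped in both. When only contigs of 10000 bases or more were summed, the share of TPM was 0.179% ± 0.0382 at gastrulation and 0.167% ± 0.00823 at cellularization, again with the opposite sign and overlapping libraries, while in the syncytium it was 0.217% ± 0.0221. Against cellularization the ratio of TPM shares was 0.378 with a minimum of 8000 bases, without overlap, but 1.20 with 12000 bases and 1.00 per component, both with overlap. No p-value is given for these sums, because the genes were singled out with earlier results of the data known, and 3 against 3 libraries allow no exact p below 0.1.

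Very long genes were mostly expressed at a middling level. The median level was 17.0, 14.8 and 14.3 TPM in the syncytium libraries, 16.1, 14.1 and 17.0 TPM at cellularization, and 10.1, 14.7 and 14.98 TPM at gastrulation. Gastrulation replicate 1 was the lowest library, and the stages overlapped. The median level averaged 15.7 ± 1.47 TPM at cellularization and 15.3 ± 1.44 TPM in the syncytium, and 13.2 ± 2.75 TPM at gastrulation (SD, n = 3 each), so that no pair of stages differed by more than the spread of its libraries. The range of levels was wide in every library, with lower quartiles from 4.32 to 7.87 TPM and upper quartiles from 22.1 to 37.7 TPM.

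**Figure D2:**
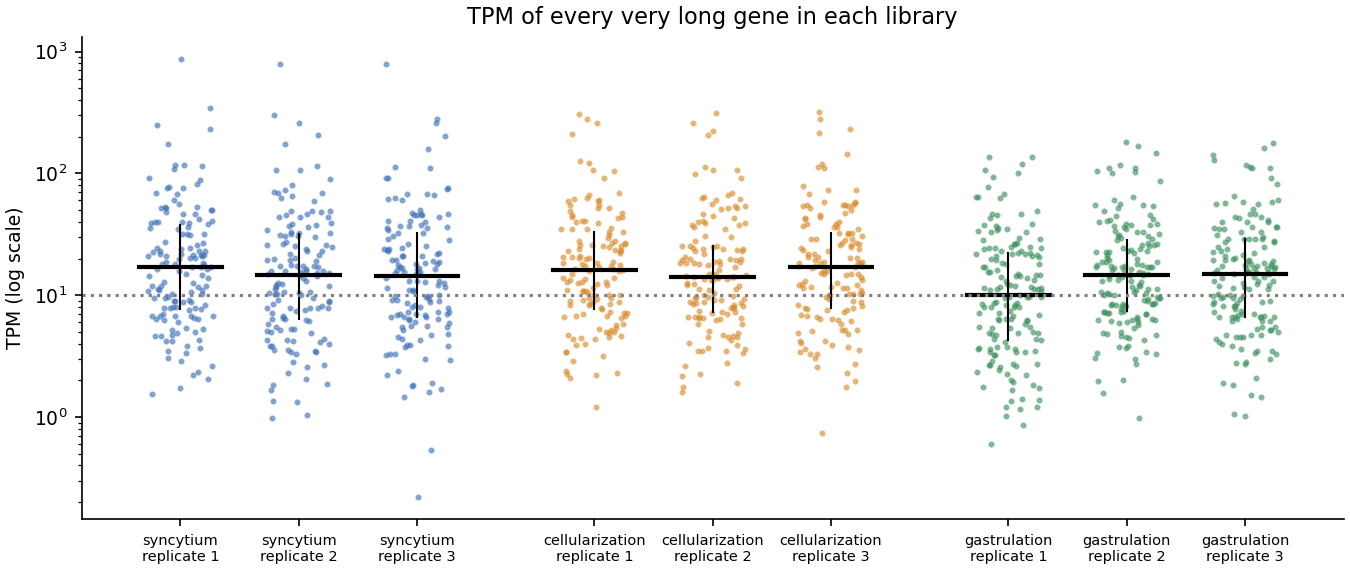
TPM of every very long gene in each of the 9 libraries, on a log scale. Points are genes, thick bars the median and thin lines the quartiles, and the dotted line marks 10 TPM. The medians run from 14.1 to 17.0 TPM except in gastrulation replicate 1, at 10.1 TPM.

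Nearly all very long genes reached 1 TPM, as did nearly all genes of the next shorter class. Per library these were 98.6% to 100% of very long genes and 97.0% to 98.7% of genes of 5000 to under 10000 bases. A contig is assembled from reads, so detection of genes with long contigs is close to given and is no result about them. At 1 TPM or more in all 3 libraries of the stage were 140 of 142 genes in the syncytium, 140 of 141 during cellularization and 158 of 160 at gastrulation. At 10 TPM or more in all 3 libraries were 83 of 142 very long genes in the syncytium (58.5%), 81 of 141 during cellularization (57.4%) and 80 of 160 at gastrulation (50%). Among all assembled genes the shares were 20.4%, 9.49% and 11.3%, and among genes whose longest contig reached 1000 bases 56.1%, 40.8% and 46.2%. In the syncytium and at gastrulation the share of very long genes was thus near that of genes whose longest contig reached 1000 bases. At 100 TPM or more in all 3 libraries were 7 of 142 very long genes (4.93%), 7 of 141 (4.96%) and 5 of 160 (3.12%), against 3.23%, 1.38% and 1.47% of all genes and 8.36%, 5.49% and 5.54% of genes whose longest contig reached 1000 bases. None of the very long genes reached 1000 TPM in any library. Such levels were rare at any length. In all 3 libraries of the stage they were reached by 104 of 45798 genes in the syncytium, 101 of 76713 during cellularization and 107 of 75619 at gastrulation. With so small a share over all genes, the absence among very long genes does not set them apart.

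Set beside shorter genes of the same libraries, the median level of very long genes was close to that of genes with 5000 to under 10000 bases in every stage. In the syncytium, very long genes had a median of 15.3 TPM, against 17.4 TPM for genes of 5000 to under 10000 bases, 19.8 TPM for genes of 2000 to under 5000 bases and 7.69 TPM for genes of 1000 to under 2000 bases (means of 3 libraries). At cellularization the medians were 15.7 TPM for very long genes, then 13.9, 11.6 and 3.62 TPM for the shorter classes in the same order. At gastrulation they were 13.2 TPM, then 15.1, 14.6 and 3.88 TPM. Very long genes were thus below the class of 2000 to under 5000 bases in the syncytium and above it at cellularization. Their own median moved little while that of the shorter class was lower at cellularization than in the syncytium. These medians are descriptions of the length classes and no test was made of them. Among very long genes themselves, level and length were hardly related, with Spearman coefficients across genes of -0.11 in the syncytium, -0.056 during cellularization and -0.024 at gastrulation. Genes with more contigs had higher summed levels, with coefficients of 0.399, 0.295 and 0.358. The contigs of a gene add up in its TPM, and they share reads.

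**Figure D3:**
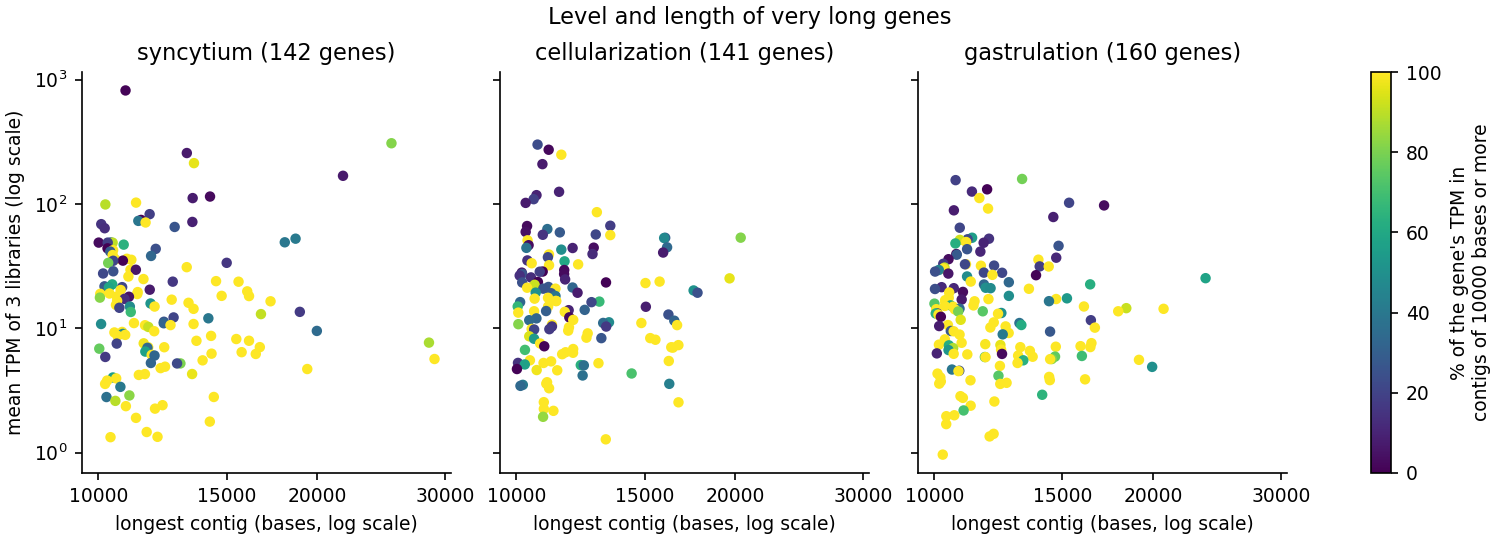
Mean TPM of each very long gene over its 3 libraries against the length of its longest contig, both on log scales, coloured by the percentage of the gene's TPM that lies in contigs of 10000 bases or more. Of the 22 genes at 100 TPM or more, 16 have less than 50% of their TPM in such contigs, and the most abundant syncytium gene, at 818 TPM, is one of them.

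The 10 most abundant very long genes held a smaller part of the group's level at each later stage. These 10 held 46.2%, 47.7% and 47.2% of the summed TPM of all very long genes in the syncytium libraries, 39.6%, 39.9% and 38.8% at cellularization, and 32.6%, 31.5% and 31.9% at gastrulation. The 3 libraries of a stage were within 2 percentage points of each other, and the stages did not overlap. Of the same total, the 9 genes after the top one held 31.9% ± 0.442 at cellularization and 30.1% ± 0.601 in the syncytium, and 27.4% ± 0.565 at gastrulation. The top gene of each library stays in that total, and held 16.9% of it in the syncytium and 7.50% at cellularization. These values therefore do not compare the 9 genes apart from the top gene, and its part in the lower value at cellularization was not tested. Of the estimated counts of all very long genes, the 10 genes with the most counts held 36.2% ± 2.03 at cellularization and 41.5% ± 0.325 in the syncytium, and 29.9% ± 0.773 at gastrulation, likewise without overlap.

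The most abundant very long gene of the syncytium was TRINITY_DN9408_c0_g3, with 874, 789.9 and 789.8 TPM in the 3 libraries. It alone held 16.9% ± 0.232 of the TPM of all very long genes and ranked 143rd by mean TPM and 17th by counts among all genes of the stage. Its longest contig of 10895 bases carried only 1.00% of its TPM, and 99.0% fell on its other contig, of 5538 bases. By mean TPM the most abundant at cellularization was TRINITY_DN1040_c0_g1, with 304, 315 and 282 TPM. Another very long gene reached 319 TPM in replicate 3 of that stage. At gastrulation the most abundant was TRINITY_DN0_c0_g2, with 119, 179 and 179 TPM, and another very long gene reached 136 TPM in replicate 1. The highest very long gene of each library, whichever it was, held 7.50% ± 0.377 of the TPM of very long genes at cellularization. At gastrulation that share was 4.61% ± 0.0135. The cellularization gene had 23.1% of its TPM in its contig of 10000 bases or more, and the gastrulation gene 78.9% in its contigs of that length.

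The genes with the longest contigs were not the most abundant ones. TRINITY_DN3101_c0_g1, with 28974 bases, had 6.44, 5.11 and 5.44 TPM in the syncytium libraries and 115th place among the very long genes of its stage. TRINITY_DN156_c2_g1, with 20340 bases, had 55.0, 51.3 and 54.5 TPM at cellularization and 18th place. TRINITY_DN517_c0_g1, with 23596 bases, had 21.7, 27.0 and 27.2 TPM at gastrulation and 44th place. All contigs of the syncytium gene reached 10000 bases, whereas 81.5% of the TPM of the cellularization gene and 58.2% of that of the gastrulation gene lay in such contigs.

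A very long gene was in many cases not a gene whose TPM lay mostly on very long contigs. Very long genes had a median of 4 contigs in each assembly, and 17 of 142, 14 of 141 and 15 of 160 had a single contig. Contigs of 10000 bases or more held 44.9% of their summed TPM in the syncytium, 39.96% during cellularization and 50.1% at gastrulation, and 64.2%, 60.7% and 66.7% of their estimated counts. The contig with the highest TPM reached 10000 bases in 89 of 142 genes in the syncytium, 70 of 141 during cellularization and 106 of 160 at gastrulation. By this stricter measure cellularization had the fewest very long genes and gastrulation the most. By TPM it was the longest contig itself that led in 43, 42 and 50 genes. By estimated counts, which are not divided by length, the leading contig reached 10000 bases in 109, 88 and 120 genes. The median gene then had 99.4%, 73.4% and 98.9% of its counts in contigs of 10000 bases or more.

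The upper end of this make-up held the most genes. At least 90% of the TPM lay in contigs of 10000 bases or more in 74, 57 and 82 genes, and less than 10% in 13, 22 and 15 genes. Genes with most of their TPM in long contigs lay lower in summed TPM. That sum is also the denominator of the share, so level and share are not independent of each other. Among very long genes under 10 TPM in the mean, the median share in such contigs was 100% in all 3 stages (54, 47 and 64 genes). Among those at 10 TPM or more it was 62.7% in the syncytium (88 genes), 31.7% at cellularization (94 genes) and 54.7% at gastrulation (96 genes). Of the 10 most abundant very long genes, 6, 8 and 7 had less than 50% of their TPM in contigs of that length. Counted on contigs of 10000 bases or more alone, the median level was 8.66, 7.53 and 7.36 TPM in the syncytium libraries, 6.12, 5.94 and 6.30 TPM at cellularization, and 4.86, 8.10 and 7.69 TPM at gastrulation. On that measure, chosen after the data were seen, cellularization lay below the syncytium without overlap, which the level of the whole genes did not show.

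**Figure D4:**
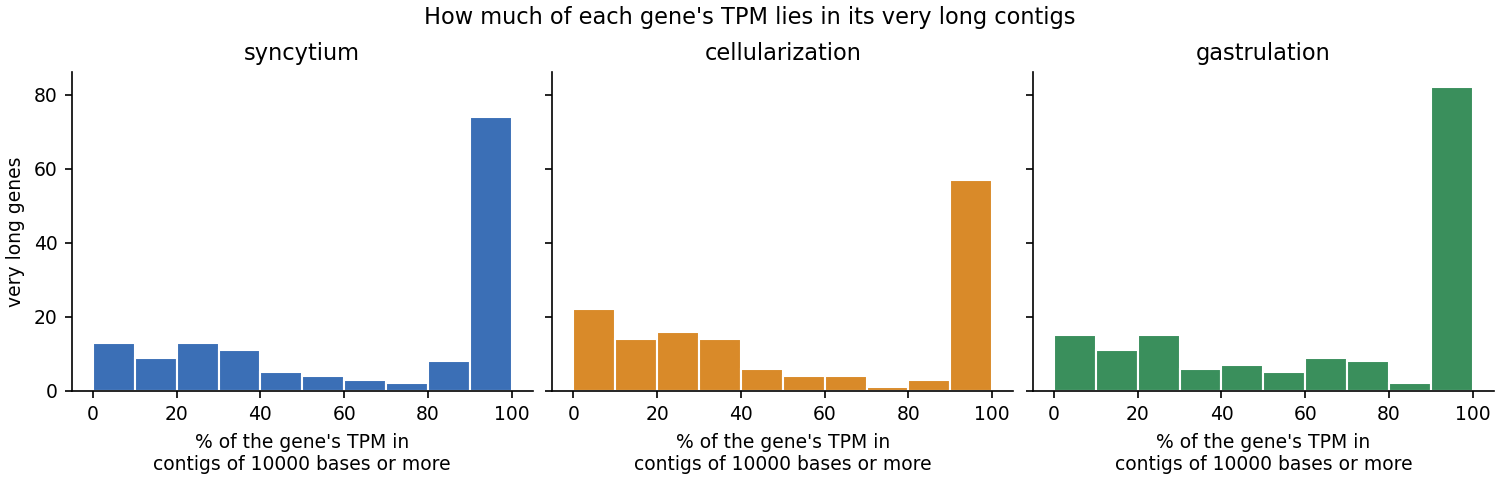
Number of very long genes (vertical axis) by the percentage of their TPM that lies in contigs of 10000 bases or more (horizontal axis, bins of 10 percentage points). The highest bin, 90% or more, holds 74 genes in the syncytium, 57 during cellularization and 82 at gastrulation, and the lowest bin 13, 22 and 15.

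Many very long genes came in pairs from 1 component of the assembly graph, a group of contigs that share sequence. The name of a contig gives its component before the gene. In the syncytium 78 of 142 very long genes (54.9%) shared a component with another very long gene, at cellularization 61 of 141 (43.3%) and at gastrulation 82 of 160 (51.2%). All of these components held exactly 2 very long genes except 1 at cellularization, which held 3. The syncytium had 39 such pairs, cellularization 29 and gastrulation 41. The gene with fewer counts held a median of 43.6% of the counts of its pair in the syncytium, 42.6% during cellularization and 43.4% at gastrulation, and at least 40% in 27 of 39, 18 of 29 and 30 of 41 pairs.

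Pairs within a component occurred among shorter genes too, and their counts were divided less evenly. Such pairs held 57.6%, 54.2% and 56.7% of genes of 5000 to under 10000 bases in the 3 stages and 42.3%, 34.8% and 36.8% of genes of 1000 to under 2000 bases. For genes of 5000 to under 10000 bases the gene with fewer counts held a median of 39.1%, 37.8% and 38.6% of the pair in the 3 stages, and for genes of 1000 to under 2000 bases 25.1%, 27.1% and 26.2%. The pairs are given as a description and no test was made across length classes. The gastrulation gene TRINITY_DN517_c0_g1 was paired with TRINITY_DN517_c0_g4, of 20659 bases, which held 47.1%, 46.1% and 42.7% of the counts of the pair in the 3 libraries. The most abundant gastrulation gene was paired with TRINITY_DN0_c0_g1, and it held 43.9%, 49.9% and 50.5% of the pair. The pairing was uneven for the longest cellularization gene, whose partner held 15.4% of the pair. How reads common to both genes of a pair were divided rests on the authors' estimation, so the level of each single gene of a pair is uncertain. The number of components with a very long gene was 103, 110 and 119, and whether paired genes are copies, alleles or pieces of one locus was not tested. The lists of genes with 15 or more contigs, 43, 36 and 50 in all, included 3, 1 and 1 very long genes.

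Very long genes were measured with many counts even at low level. Those at 1 to 10 TPM had medians of 849 to 1706 estimated counts per library, for which counting error alone is between 2.42% and 3.43%, against 15.8 to 28.8 counts for genes of 500 to under 1000 bases at the same level. The lowest count of any very long gene in any library was 65.3.

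Replicates differed least in the syncytium and most at gastrulation when each gene was taken by itself. The coefficient of variation of TPM between the 3 libraries had a median over very long genes of 9.72% in the syncytium, 13.5% during cellularization and 19.7% at gastrulation. Among genes of 5000 to under 10000 bases the medians were 8.30%, 15.97% and 13.5%, and among all genes with a mean of 1 TPM or more 19.3%, 39.8% and 29.5%, where low counts add to the spread. The highest of the 3 libraries was at least 2 times the lowest for 7 of 142 very long genes in the syncytium (4.93%). At cellularization this held for 5 of 141 (3.55%) and at gastrulation for 32 of 159 (20.1%). For all genes with a mean of 1 TPM or more the shares were 33.81%, 54.41% and 44.04%. For genes of 5000 to under 10000 bases they were 2.79%, 10.99% and 11.85%. Very long genes were thus below all genes in every stage. They were below the class of 5000 to under 10000 bases only at cellularization. edgeR's common dispersion gave a coefficient of 0.186 for very long genes in the syncytium, 0.155 during cellularization and 0.264 at gastrulation. The order of the first and second stage was thus the opposite of that by the median gene. For genes of 5000 to under 10000 bases edgeR gave 0.186, 0.254 and 0.243 in the 3 stages. Without gastrulation replicate 1 the value for very long genes at gastrulation was 0.137, and without replicate 2 or 3 it was 0.291 or 0.328. With 1 library left out in the same way, the values ran from 0.109 to 0.196 at cellularization and from 0.149 to 0.205 in the syncytium. Spearman correlations between libraries across very long genes ranged from 0.988 to 0.993 in the syncytium, 0.956 to 0.986 at cellularization and 0.964 to 0.983 at gastrulation. The genes are not independent replicates.

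In gastrulation replicate 1 the level relative to the other libraries fell with length from 1000 bases on. In that library 140 of 159 very long genes with a mean of 1 TPM or more were at their lowest of the 3 libraries (88.1%). Among all genes with that mean 44.7% were lowest in that library, among genes of 5000 to under 10000 bases 75.2% and among genes of 1000 to under 2000 bases 37.2%. The median log2 ratio of replicate 1 to the mean of the other two libraries was -0.47 for very long genes, which is a level of 0.720 times theirs, and -0.27 for genes of 5000 to under 10000 bases. By length it went through -0.01 at 1000 to under 2000 bases, -0.18 at 4000 to under 5000 bases, -0.43 at 10000 to under 11000 bases and -0.61 at 13000 bases and more (45 genes). From the class of 1000 to under 2000 bases on, each longer class was lower than the one before it, while the class of 500 to under 1000 bases, at -0.11, lay below the next.

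In the syncytium, replicate 1 differed from its fellow libraries in the opposite direction and by less. Of 142 very long genes 119 were highest in that library (83.8%), against 40.4% of all genes and 64.7% of genes of 5000 to under 10000 bases. The median log2 ratio to the other two libraries was 0.20 for very long genes, and by length it was -0.02 at 1000 to under 2000 bases, 0.15 at 8000 to under 10000 bases, 0.21 at 11000 to under 13000 bases and 0.19 at 13000 bases and more. At cellularization replicates 2 and 3 differed most from their fellow libraries at 2000 to under 6000 bases, and less among the longest genes. In replicate 3 the median log2 ratio was 0.24 at 2000 to under 3000 bases, 0.19 at 6000 to under 8000 bases and 0.07 at 13000 bases and more. That library was highest for 58.2% of very long genes and 60.4% of genes of 5000 to under 10000 bases. Replicate 2 had the lowest value for 87 of 141 very long genes (61.7%), but also for 64.3% of genes of 5000 to under 10000 bases, and its median log2 ratio was nearer to 0 for genes of 13000 bases and more, at -0.07, than for genes of 2000 to under 3000 bases, at -0.25. The labels name no batch, date or RNA quality for any library, and the part of these in the length-dependent differences was not tested.

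**Figure D5:**
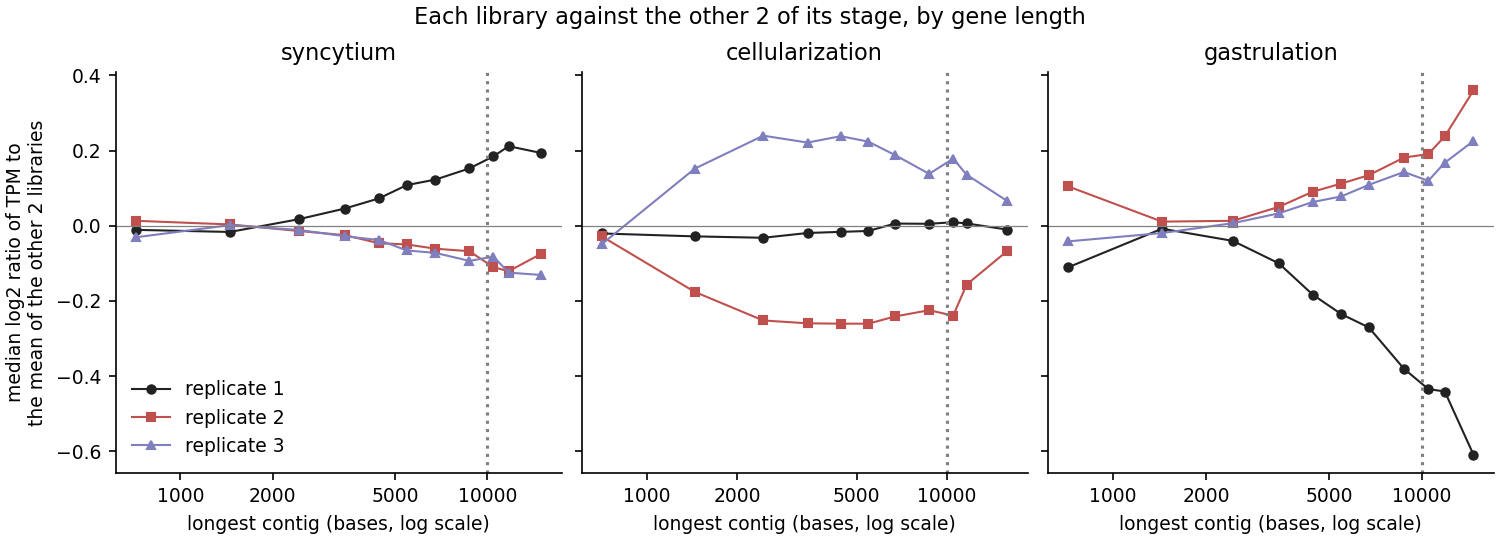
Median log2 ratio of TPM in each library to the mean of the other two libraries of its stage (vertical axis) for genes grouped by longest contig (horizontal axis, log scale, points at the median length of each group). Genes have a mean of 1 TPM or more and no library at 0, the dotted line marks 10000 bases, and from 1000 bases on the gastrulation replicate 1 line descends from -0.01 to -0.61 as length increases.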

How the data were processed

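Per the submitters' processing notes, kallisto 0.44.4 gave the estimated counts and TPM per contig, and FastQC 0.11.7 and MultiQC 1.5 are also named. No normalization was applied to the deposited estimated counts. The deposited TPM sum to 1000000 per library and are divided by effective length. The deposited contig lengths and effective lengths are in bases. Contig names have the form written by the assembler Trinity. The sources used here state neither its version nor the trimming and strand setting.

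Contigs were summed per Trinity gene by removing the contig number from the name (Python 3.11.15, pandas 2.3.3). Levels were compared as shares, counts and medians per library, with mean and SD over 3 libraries, and whether libraries of different stages overlapped. Replicate spread came from edgeR 4.0.16 (R 4.3.3), on estimated counts rounded to whole numbers, for genes with a summed count of 10 or more, and was tested on simulated data. Replicate ratios used genes with a mean of 1 TPM or more.

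The genes, lists and measures were chosen with earlier results of these data known. Named are, by rule, the very long gene with the highest mean TPM and the one with the longest contig in each stage. No sequence was at hand for any contig. TRINITY_DN245_c0_g1 and the partner genes of pairs were named after their values were seen.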

Additional observations from a re-analysis of the deposited data

How the results depend on the processing

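Ratios below set the later stage over the earlier one. No paired analysis was possible because none of the results comes from a test and the replicate numbers are not said to mark a shared batch. With a minimum of 8000 bases, cellularization against the syncytium turned to 1.30 by share of counts (0.912 at 10000 bases) and 2.48 by share of TPM (0.862). At gastrulation against cellularization the shares of counts and TPM gave 0.792 (0.963) and 0.378 (0.856). By TPM, gastrulation against the syncytium was 0.939 (0.738), with overlap. A single cellularization gene just under the threshold, TRINITY_DN245_c0_g1 with 9075 bases, holds 1.76% of the TPM. With 12000 bases the first pair gave 0.634 by counts and 0.540 by TPM, and gastrulation against cellularization turned to 1.30 by counts and 1.20 by TPM. Summed per component, the value was 0.989 by counts for the first pair. By TPM, gastrulation against cellularization gave 1.00 (1.004 before rounding) and gastrulation against the syncytium 0.897, both with overlap. With contigs of 10000 bases or more alone, the share of TPM was 0.768 and 1.07 (turned) for the first and second pair, and the median TPM 0.779 (1.03) and 1.12 (0.841). Without the most abundant gene the share of TPM of the first pair was 0.963. By the median coefficient of variation in place of edgeR's value, the replicate spread was 1.38 at cellularization against the syncytium (0.834) and 2.02 at gastrulation against the syncytium (1.42). Leaving out 1 library moved these ratios of spread between 0.585 and 1.05, 0.884 and 2.43 (1.70), and 0.737 and 1.77. The cause of these changes was not tested. Of the 63 alternatives other than leaving out 1 library, 44 stayed within a set limit, and 5 of these 44 crossed a ratio of 1. The limit was the SD of the ratio from the spread between libraries, or 1.5 times for counts of genes. For replicate spread it was the SD of the ratios with 1 library left out. That SD was 0.180, 0.550 and 0.387 for the pairs in the order given.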
